A study of Mus musculus with 13 samples.

Results

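Among dissociated neurons of the mouse retrosplenial cortex, 105 of 765 cells (13.7%, exact binomial 95% interval 11.4 to 16.4) carried RNA of Tnnc2 or Eps8l2 and almost none of Calb1. A cell was counted among them where Tnnc2 and Eps8l2 together reached at least 30 CPM, a count scaled to the total of its cell, and Calb1 stayed below 100 CPM. These cells are called gated cells here, and the remaining 660 cells are called other cells. The cells were thus chosen by the measured levels of these 3 gate genes, which are given without a test. The gate itself was proposed after clusters of these same cells had been seen, so every difference between gated and other cells below describes the cells and is not independent evidence for them. The interval above covers counting error over cells and not the spread between the 3 animals, whose shares ran from 11.8% to 16.4%.

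The retrosplenial cortex is a midline area of the neocortex that links the hippocampal formation with sensory, motor and thalamic systems. Its granular part lacks the classical layer 4 of sensory cortex and has a densely packed superficial layer of small excitatory neurons. Tnnc2 encodes the calcium-binding subunit of the troponin complex of fast skeletal muscle, and Eps8l2 encodes an actin regulator of the Eps8 family known from the stereocilia of inner-ear hair cells. Scnn1a encodes the alpha subunit of the epithelial sodium channel and is widely used as a marker of layer 4 neurons. Hsd11b1 encodes the enzyme that regenerates active glucocorticoid inside cells, and Thsd7a encodes a membrane protein with thrombospondin repeats.

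The dissociated cells came from wild-type (WT) B6 mice without any labelled treatment; animal 1 gave samples 1 to 3, animal 2 gave samples 11 to 14 and animal 3 gave samples 15 to 18. Retrosplenial tissue was microdissected from acute slices and its cells were pooled across slices, and the column of each cell in the deposited table names an anterior, medium or posterior dissection level. A second data set held 2 Visium sections of WT brain, 10 µm thick and called S4 and S8 here, with 1973 spots whose RNA can come from several cells each. The labels do not give the age of the mice.

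Total counts ran from 2306470 to 15974543 per dissociated sample and from 16307 to 468895 per cell. Gated cells were deeper than other cells in each of the 3 animals, with medians of 197966 against 134982 counts and 6173 against 5236 detected genes per cell overall. The median mitochondrial share was 2.52% in gated and 2.21% in other cells. The share of gated cells in the 11 samples was 14.2% ± 3.40 (SD, n = 11) and ran from 11.25% to 21.9%, so that no sample lacked them. These 11 samples come from 3 animals and are not independent of each other. By animal, 25 of 152, 36 of 304 and 44 of 309 cells were gated. Of 331 distinct barcodes, 237 occurred in more than 1 sample and 0 occurred more than once within a sample, and 0 cells had identical counts. No doublet caller was run.

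To show the genomic context of the genes that define these cells, the 250 bases before the transcription start were taken from RefSeq (mouse build GRCm38.p6) for 5 of 6 genes searched, while Scnn1a had no entry. Each is written 5′ to 3′ on the strand of its gene. Capitals mark matches to 3 short motifs searched on both strands: the E-box CAGATG, which reads CATCTG on the opposite strand, the E-box CAGCTG, and the TATA-type motif TATAAA, which reads TTTATA on the opposite strand. No match here overlapped another. Among 32851 RefSeq promoters of the same length, 14.4% held CAGATG, 13.001% held CAGCTG and 12.4% held TATAAA. Tnnc2 lies at chr2:164779735-164779984 (minus strand), Eps8l2 at chr7:141338752-141339001 (plus strand), Hsd11b1 at chr1:193242361-193242610 (minus strand), Thsd7a at chr6:12749254-12749503 (minus strand) and Pygm at chr19:6384158-6384407 (plus strand).
Tnnc2: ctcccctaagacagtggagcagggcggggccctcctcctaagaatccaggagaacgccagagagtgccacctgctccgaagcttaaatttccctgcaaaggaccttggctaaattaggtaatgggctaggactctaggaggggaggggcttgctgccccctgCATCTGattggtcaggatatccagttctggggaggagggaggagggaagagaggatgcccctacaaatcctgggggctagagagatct
Eps8l2: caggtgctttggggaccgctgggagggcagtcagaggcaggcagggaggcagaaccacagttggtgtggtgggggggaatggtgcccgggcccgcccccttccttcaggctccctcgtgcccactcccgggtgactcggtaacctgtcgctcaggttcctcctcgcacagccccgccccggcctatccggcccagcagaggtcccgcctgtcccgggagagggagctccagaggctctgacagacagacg
Hsd11b1: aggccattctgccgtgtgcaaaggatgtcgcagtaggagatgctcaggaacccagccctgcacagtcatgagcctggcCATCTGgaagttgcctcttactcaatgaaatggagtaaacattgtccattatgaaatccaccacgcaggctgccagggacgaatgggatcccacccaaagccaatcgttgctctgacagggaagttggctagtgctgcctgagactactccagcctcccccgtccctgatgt
Thsd7a: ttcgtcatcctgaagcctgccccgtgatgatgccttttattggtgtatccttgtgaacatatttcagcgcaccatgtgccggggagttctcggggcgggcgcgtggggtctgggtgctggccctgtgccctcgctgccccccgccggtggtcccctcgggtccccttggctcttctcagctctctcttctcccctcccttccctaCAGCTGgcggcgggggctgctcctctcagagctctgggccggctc
Pygm: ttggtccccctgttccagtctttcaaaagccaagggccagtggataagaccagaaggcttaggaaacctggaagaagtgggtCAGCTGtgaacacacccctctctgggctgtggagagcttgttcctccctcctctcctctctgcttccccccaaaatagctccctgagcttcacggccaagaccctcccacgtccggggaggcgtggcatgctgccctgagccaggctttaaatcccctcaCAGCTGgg
The Tnnc2 and Hsd11b1 windows each held 1 CAGATG match, on the strand opposite to the gene. The Thsd7a window held 1 CAGCTG match and the Pygm window held 2, whereas the Eps8l2 window held 0 matches of the 3 motifs. The GC content was 69.2% for Eps8l2, 65.2% for Thsd7a, 58.4% for Pygm, 56.8% for Tnnc2 and 54.4% for Hsd11b1, against a median of 52.4% over all promoters. These matches describe letters in 1 window per gene.

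The gate split the cells at a sparsely filled range. Of the 660 other cells, 625 held no count of Tnnc2 or Eps8l2, 29 lay above 0 and under the 30 CPM limit, and 6 were kept out by Calb1. The gated cell with the lowest sum had 35.5 CPM, and the other cell with low Calb1 and the highest sum had 22.6 CPM. Summed levels in gated cells had a median of 255 CPM and reached 1054 CPM. In 86 gated cells Calb1 had no count, and the highest Calb1 level in a gated cell was 48.9 CPM.

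Both gate genes were detected together in 63 gated cells, Eps8l2 alone in 30 and Tnnc2 alone in 12. Median Thsd7a was 286 CPM in cells with both genes, 235 CPM with Tnnc2 alone and 289 CPM with Eps8l2 alone. For Pygm, the glycogen phosphorylase of skeletal muscle, the medians were 293, 264 and 311 CPM in the same order, and for Scnn1a they were 49.9, 50.4 and 59.1 CPM. Median Hsd11b1 spread more, at 152, 96.6 and 117 CPM. The Eps8l2-only cells were shallower, with a median of 157308 counts against 215010 in cells with both genes.

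Clustering of all cells on their variable genes placed 101 of the 105 gated cells in 1 cluster of 121 cells. The gate was proposed after clusters of these cells had been seen, and the gate genes were not removed before clustering. This overlap is therefore not an independent check of the gate. Of its 20 ungated cells, 17 held no count of either gate gene. Over all 20, the medians were 353 CPM for Thsd7a, 235 for Pygm, 82.5 for Hsd11b1 and 38.2 for Scnn1a. In the gated cells of that cluster they were 288, 294, 141 and 54.01 CPM, so Thsd7a was lower and the other genes higher than in the ungated cells. The 4 gated cells outside that cluster had medians of 0 CPM for Hsd11b1, Scnn1a and Thsd7a. The gate left out some cells of like profile and took in 4 cells without it.

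The label names 5 marker genes, of which Tnnc2 and Eps8l2 chose the cells. The other 3, Hsd11b1, Scnn1a and Thsd7a, were named with earlier results of these cells known. None of the 5 is therefore an independent check of the class. Hsd11b1, Scnn1a and Thsd7a were higher in gated cells of each animal. In gated cells of animals 1, 2 and 3, Tnnc2 reached 94.2, 69.5 and 142 CPM and Eps8l2 reached 179, 198 and 187 CPM, whereas neither passed 2.00 CPM in the other cells of any animal. Hsd11b1 stood at 253, 160.3 and 136 CPM against 8.14, 9.50 and 6.56 CPM in other cells. Scnn1a stood at 101, 87.9 and 45.7 CPM against 9.72, 2.70 and 2.48 CPM. Thsd7a stood at 307, 337 and 306 CPM against 25.8, 21.6 and 6.51 CPM. The lowest gated value of each of these genes lay above the highest value in other cells. Across the 11 samples, Thsd7a ran from 207 to 406 CPM (median 324) in gated cells and from 0.152 to 35.3 CPM (median 22.9) in other cells, without overlap. Scnn1a, at 26.01 to 194 CPM (median 66.6) against 0.986 to 37.7 CPM (median 2.29), overlapped between samples although it was higher in gated cells of 11 of 11 samples.

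Counts were summed per animal and class and fitted with edgeR's quasi-likelihood test, with the animal as a block. A gene is called where the Benjamini-Hochberg adjusted p is under 0.05 and the log2 fold change is at least 1 in size. Of 12768 genes tested against all other cells, 916 (7.17%) were called, 357 (2.8%) higher and 559 (4.38%) lower in gated cells. The 3 non-gate markers Hsd11b1, Scnn1a and Thsd7a were all called higher, with log2 fold changes of 4.44 ± 0.21 (SE), 4.21 ± 0.35 and 4.37 ± 0.36. Gated cells were deeper than other cells; after every cell was thinned to 50000 counts, which left out 4 gated and 57 other cells, 886 genes were called.

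**Figure D1:**
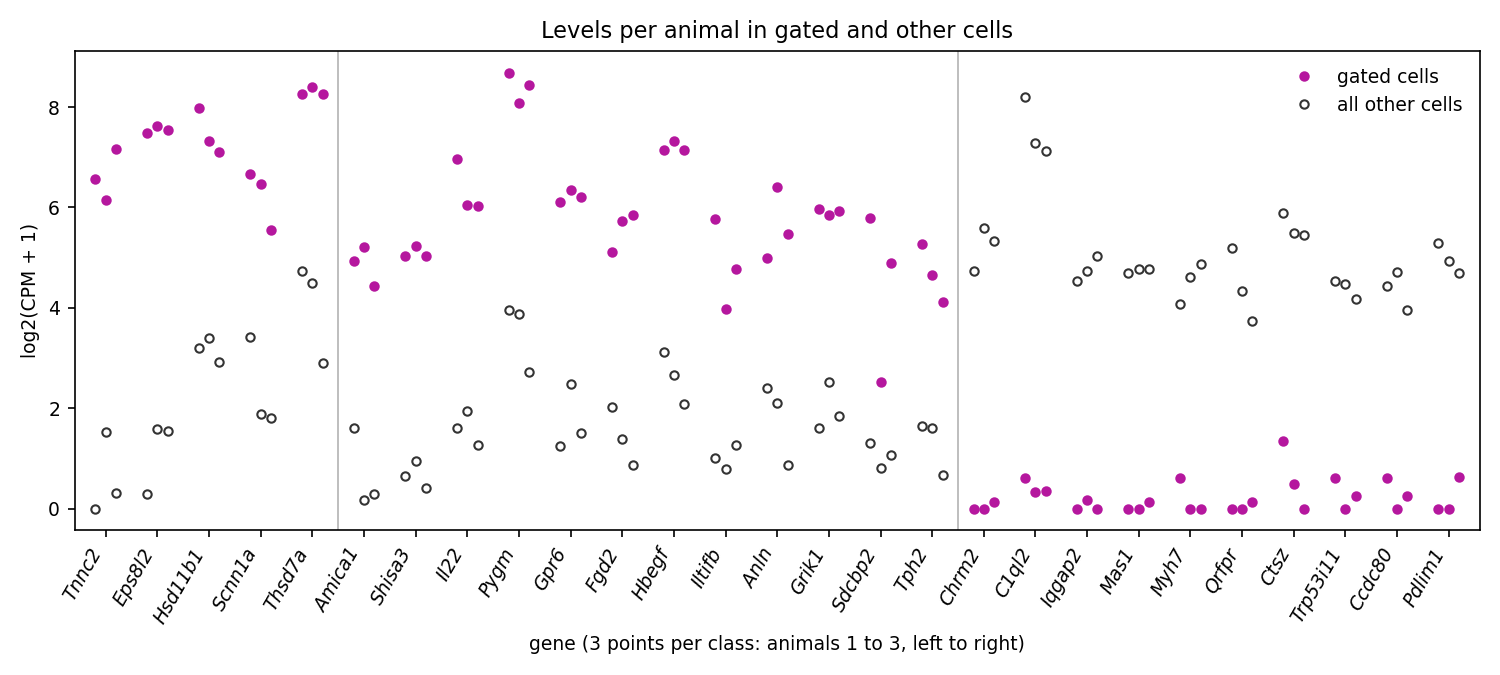
Levels per animal, as log2(CPM + 1), of the 5 markers (left block), of the other 12 genes with the largest called increase (middle block) and of the 10 genes with the largest called decrease (right block), with 1 point per animal and class. Filled points are gated cells and open points are all other cells. The 3 filled points of every gene lie on 1 side of its 3 open points.

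Several of the genes with the largest increases act in metabolism and signalling. Pygm, which releases glucose units from glycogen, reached 412, 271 and 347 CPM in gated cells of the 3 animals against 14.6, 13.6 and 5.60 CPM in other cells, and was detected in 95.2% of gated and 11.5% of other cells. Hbegf, a ligand of the EGF receptor family, reached 141, 160 and 141 CPM against 7.69, 5.33 and 3.23 CPM. For both genes the 11 samples of gated cells lay above all 11 samples of other cells. The cytokine gene Il22 reached 124, 65.1 and 64.4 CPM against 2.03, 2.86 and 1.42 CPM. Iltifb, a near-identical copy of Il22, reached 53.8, 14.8 and 26.3 CPM against 1.02, 0.735 and 1.40 CPM. How reads were shared between the 2 copies is not given in the sources used here, so the level of each copy alone is uncertain. Tph2, the rate-limiting enzyme of neuronal serotonin synthesis, reached 37.8, 24.05 and 16.4 CPM against 2.15, 2.02 and 0.589 CPM, but was detected in only 30.5% of gated cells. Gpr6, an orphan receptor coupled to cyclic AMP production, reached 68.3, 80.5 and 72.8 CPM against 1.36, 4.57 and 1.85 CPM.

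A further group acts at the membrane and on the cytoskeleton. Grik1, a subunit of kainate-type glutamate receptors, reached 62.1, 56.4 and 60.3 CPM against 2.03, 4.75 and 2.60 CPM. Fgd2, an exchange factor that activates the small GTPase Cdc42, reached 33.6, 52.2 and 56.7 CPM against 3.05, 1.63 and 0.832 CPM. Anln, the actin-binding protein anillin, reached 31.05, 83.6 and 43.2 CPM against 4.30, 3.28 and 0.832 CPM. Amica1, which encodes a junctional adhesion molecule, had the largest fitted increase of the named genes beside the gate genes. Its log2 fold change was 6.04 ± 0.82, from 29.5, 36.3 and 20.7 CPM against 2.03, 0.131 and 0.223 CPM. Shisa3 followed at 31.6, 36.6 and 31.6 CPM against 0.565, 0.919 and 0.325 CPM. Sdcbp2, which encodes a scaffold protein with PDZ domains, was the least even, with 54.3, 4.76 and 28.6 CPM, and was detected in 18.1% of gated cells.

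The genes with the largest called decreases had few counts in gated cells. Chrm2, the M2 muscarinic acetylcholine receptor, had 1 count in all 105 gated cells and stood at 25.7, 47.05 and 39.5 CPM in other cells of animals 1, 2 and 3. Mas1, a receptor of angiotensin peptides, also had 1 gated count, against 24.98, 26.3 and 26.5 CPM. Qrfpr, a receptor of RF-amide peptides, had 1 gated count as well, against 35.7, 19.1 and 12.4 CPM, and its call was lost with the gate at 15 CPM (log2 fold change -3.87) and without posterior cells (-5.98). The scaffold gene Iqgap2 was detected in 1 gated cell against 26.8% of other cells. C1ql2, which encodes a secreted synaptic organizer, stood at 0.517, 0.264 and 0.274 CPM in gated cells against 294, 155 and 139 CPM; its log2 fold change was -9.06 ± 0.24. Myh7, the slow muscle myosin heavy chain, was detected in 0.952% of gated and 23.8% of other cells. Ctsz, Trp53i11, Ccdc80 and Pdlim1 completed the group, each under 1.56 CPM in gated cells of every animal and at or above 14.6 CPM in other cells.

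Slc17a7, the vesicular glutamate transporter of most cortical excitatory neurons, was detected in 105 of 105 gated cells at 99.6 ± 2.49 CPM (SD, n = 3 animals) against 134 ± 20.4 CPM in other cells and was not called. Among 6 excitatory neuron markers tested, 0 were called higher and 2 lower. These were Neurod6, a transcription factor of cortical excitatory neurons, at 7.76, 16.1 and 5.12 CPM against 116, 145 and 126 CPM, and Slc17a6, the second vesicular glutamate transporter, at 13.1 ± 7.43 against 31.8 ± 5.68 CPM. Neurod6 was detected in 22 and Slc17a6 in 20 of the 105 gated cells. The Slc17a6 call was lost without animal 1 (log2 fold change -1.37) and without animal 2 (-1.06).

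**Figure D2:**
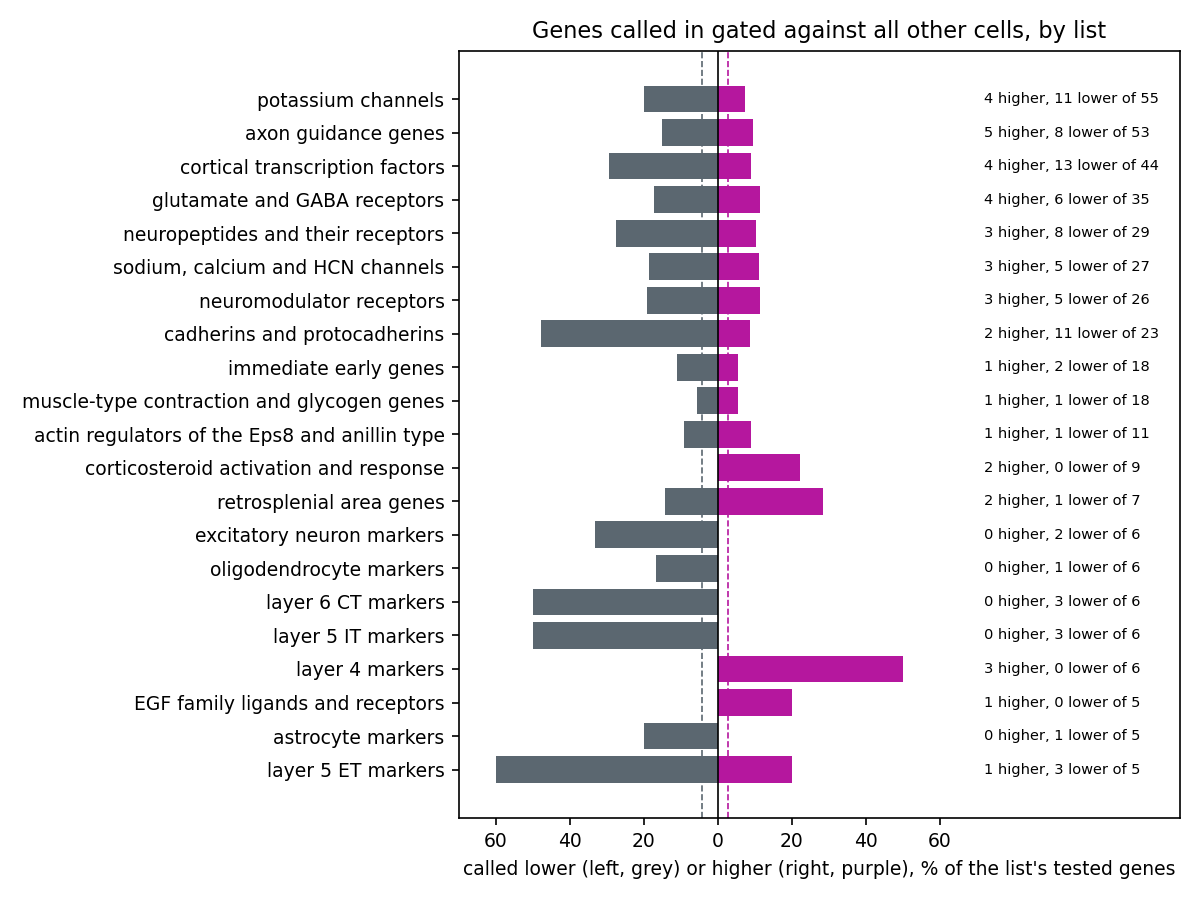
Share of the tested genes of each list that were called lower (grey, to the left) or higher (purple, to the right) in gated cells against all other cells, for lists with at least 5 tested genes, with the counts at the right. Dashed lines mark the shares over all tested genes, 2.8% higher and 4.38% lower; layer 4 markers have 3 of 6 genes called higher and cadherins and protocadherins 11 of 23 called lower.

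Marker lists of cortical layers gave a mixed picture. Of 6 layer 4 markers tested, 3 were called higher and 0 lower, with a list median log2 fold change of 2.18 against -0.07 over all genes tested. Beside Scnn1a these were Rspo1, a secreted activator of Wnt signalling, at 94.2, 100.3 and 105 CPM against 6.89, 11.1 and 17.5 CPM, and Whrn, a scaffold protein, at 39.8, 37.4 and 33.2 CPM against 4.63, 3.68 and 4.30 CPM. Rorb, the transcription factor most used to define layer 4, held 5 counts in 3 gated cells and stood at 0.193 ± 0.198 CPM against 3.30 ± 2.29 CPM in other cells. Its log2 fold change of -3.91 ± 1.20 was not called (edgeR adjusted p = 0.0784).

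Of 5 tested markers of layer 5 extratelencephalic neurons, Parm1 was called higher, at 715, 599 and 678 CPM against 253, 153 and 106 CPM, and 3 were called lower. Bcl11b, a transcription factor of deep-layer projection neurons, stood at 5.52 ± 3.49 against 172 ± 43.7 CPM, and Crym, a thyroid hormone binding protein, at 8.41 ± 3.08 against 241 ± 98.5 CPM. Fezf2, which specifies subcortical projection neurons, stood at 46.1, 53.4 and 47.2 CPM against 122, 111 and 76.98 CPM. The Fezf2 difference fell from a log2 fold change of -1.04 to -0.07 when posterior cells were left out, and its call was also lost without animal 1 (-0.88). Animal 2 had no gated cell at the posterior level; the part of this in the Fezf2 difference was not tested.

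Many markers of the remaining layers were called lower in gated cells. Of 3 tested layer 2/3 genes beside the gate gene Calb1, 2 were called lower: Ddit4l at 7.77 ± 7.43 against 114 ± 49.5 CPM and Rasgrf2 at 7.25 ± 9.47 against 65.9 ± 22.98 CPM. Of 6 layer 5 intratelencephalic markers, 3 were called lower, among them Tox at 1.02 ± 0.834 against 80.7 ± 18.96 CPM and Deptor at 11.7 ± 2.08 against 38.7 ± 5.23 CPM. The list as a sum differed less, at 288, 334 and 333 CPM against 452, 373 and 306 CPM, and was higher in gated cells of animal 3. Etv1, a member not called here, was called higher against cells with at least 100 CPM of Calb1, and Tox lower. Layer 6 intratelencephalic genes had 3 of 4 called lower; Oprk1, the kappa opioid receptor, had 0 counts in gated cells, at least 64.5-fold lower than in other cells against a floor of 3 counts over the gated sums. Layer 6 corticothalamic genes had 3 of 6 called lower, among them Rprm at 4.30 ± 7.37 against 45.9 ± 5.69 CPM. The layer 6b gene Ctgf also had 0 counts, at least 94.7-fold lower against the same floor. Ctgf was detected in 9.09% and Oprk1 in 5.91% of other cells, so both levels come from a minority of those cells.

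Tshz2, a zinc finger factor that is abundant in retrosplenial cortex and marks near-projecting neurons elsewhere, was detected in 105 of 105 gated cells. Its level was 938 ± 207 CPM in gated and 522 ± 88.7 CPM in other cells, and its log2 fold change of 0.84 ± 0.10 lay under the fold needed for a call. Of 7 retrosplenial area genes tested, 2 were called higher and 1 lower. Coch, a secreted matrix protein, stood at 171, 127 and 160.4 CPM against 41.9, 34.8 and 53.1 CPM, and the samples of the 2 classes did not overlap. The chemokine Cxcl14 stood at 52.8, 18.5 and 28.96 CPM against 4.52, 7.51 and 9.94 CPM (log2 fold change 2.05). The Cxcl14 call was lost without posterior cells (0.96), after thinning to 50000 counts (1.92) and without cells under 50000 counts (2.49). Of the near-projecting markers, 0 of 4 tested were called higher, and Nxph1 had 1 gated count.

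Lists of markers of other cell types were held by the table in part: 4 of 8 inhibitory, 6 of 6 astrocyte, 6 of 6 oligodendrocyte, 2 of 5 oligodendrocyte precursor, 1 of 6 endothelial and mural and 0 of 6 microglia markers had a row, so microglia were not analysed here. Pvalb, the calcium-binding protein parvalbumin that marks many inhibitory neurons, was called higher: 125.22, 251 and 123 CPM in gated cells against 19.2, 57.3 and 14.98 CPM. It was detected in 63.8% of gated and 11.1% of other cells. Gad1 and Gad2, which make the transmitter GABA and define inhibitory neurons, had 8 and 0 counts in all gated cells together, and Sst had 12. The 4 inhibitory markers with a row in the table summed to 122 to 248 CPM in gated cells of the 3 animals and to 16.3 to 58.5 CPM in other cells, nearly all of it Pvalb.

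Summed astrocyte markers (6 of 6 in the table) ran from 12.99 to 92.7 CPM in gated cells and from 100.01 to 157 CPM in other cells. Aldoc, a glycolytic enzyme and part of this list, was called lower and lost its call without the animal block. The other members were mixed, and the list's median log2 fold change over 5 tested genes was 2.38. Slc1a3 and Gja1, neither called, and Gfap, not tested and with 5 gated counts, were higher in gated cells of 3 of 3 animals. In animal 3 the Slc1a3 levels were close, at 0.179 against 0.122 CPM. Aqp4 was higher in gated cells of animals 1 and 2, and Agt only in those of animal 2. Slc1a3, a glutamate transporter of astrocytes, held 145 counts in 14 gated cells and 67 counts in the other cells, and the gap junction gene Gja1 held 59 counts in 5 gated cells and 34 counts in the other cells. Summed oligodendrocyte markers (6 of 6) ran from 72.5 to 155 CPM against 139 to 281 CPM, and 74.3% of gated and 62.1% of other cells held Mbp. Of the oligodendrocyte precursor markers, 2 of 5 had a row and summed to 0 to 7.19 CPM in gated cells. The mural marker Rgs5 had 0 counts in gated cells. The part of other cells' RNA in any of these differences was not tested.

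Ion channel genes moved in both directions. For this and the lists that follow, the shares over all genes tested were 2.8% called higher and 4.38% called lower. Of 55 potassium channel genes tested, 4 were called higher and 11 lower. Higher genes were Kcnk2, a background leak channel, at 60.02, 48.4 and 72.1 CPM against 9.38, 12.8 and 11.1 CPM, Kcnab3, an auxiliary subunit, at 211, 218 and 223 CPM against 58.4, 77.8 and 101 CPM, Kcna2 and Kcnn2. Lower genes included Kcnv1, a silent subunit that modifies other channels, at 3.10, 9.78 and 0.274 CPM against 86.4, 113 and 169.9 CPM, and Kcnip1, with 0 gated counts and at least 52.5-fold lower against the floor of 3 counts. Kcnip1 was detected in 6.97% of other cells. The list median of -0.40 lay below the median of -0.07 over all genes.

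Among 27 sodium, calcium and HCN channel genes tested, 3 were called higher and 5 lower. Scn3b, an auxiliary beta subunit of sodium channels, stood at 19.7, 10.97 and 15.7 CPM in gated cells against 310, 418 and 364 CPM in other cells. Its highest gated sample (42.6 CPM) lay below its lowest sample of other cells (298 CPM). Scn4b, another beta subunit, stood at 2.26 ± 3.76 against 33.5 ± 15.7 CPM. The pore-forming subunit Scn1a was called higher, at 531, 537 and 618 CPM against 312, 234 and 281 CPM. The T-type calcium channels Cacna1g and Cacna1h were called lower, at 4.86 ± 3.83 against 35.2 ± 5.92 CPM and 2.11 ± 1.76 against 28.7 ± 6.85 CPM, and both calls were lost without posterior cells, where the log2 fold changes were -2.58 for Cacna1g and -3.72 for Cacna1h against -3.29 and -4.27 with all cells.

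Of 35 glutamate and GABA receptor genes tested, 4 were called higher and 6 lower. Gria1, an AMPA receptor subunit, stood at 11.4, 12.4 and 5.57 CPM in gated cells and at 123, 141 and 91.04 CPM in other cells (log2 fold change -3.67 ± 0.21). It was detected in 21 of 105 gated cells and in 83.0% of other cells. Gria3 was lower as well, at 176, 140 and 145 CPM against 412, 318 and 347 CPM. Kainate receptor subunits parted: Grik1 was higher, whereas Grik3 stood at 0.511 ± 0.417 against 21.5 ± 1.24 CPM. Grm4 and Grm7, metabotropic glutamate receptors, and Gabrd, the delta subunit of extrasynaptic GABA receptors, were called higher; Gabrd stood at 428, 422 and 395 CPM against 147, 167 and 208 CPM.

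Receptors of modulatory transmitters showed 3 genes called higher and 5 lower of 26 tested. Htr2c, a serotonin receptor, stood at 67.3, 99.9 and 89.1 CPM against 28.4, 14.4 and 19.97 CPM, and the noradrenaline receptor Adra1b and the histamine receptor Hrh3 were also called higher. Beside Chrm2, the muscarinic receptor Chrm4 was called lower with 6 gated counts, as was the noradrenaline receptor Adra2c with 6. The dopamine receptor Drd1a had 0 gated counts and was at least 45.2-fold lower against the floor of 3 counts. Drd1a was detected in 8.03% of other cells. The cannabinoid receptor Cnr1 stood at 6.21, 5.42 and 1.74 CPM against 42.6, 43.4 and 36.8 CPM.

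Of 29 neuropeptide and peptide receptor genes tested, 3 were called higher and 8 lower. Cck, the most abundant of them, stood at 418, 329 and 378 CPM in gated cells against 2820, 2500.2 and 3020 CPM in other cells (log2 fold change -2.90 ± 0.07), and the samples of the 2 classes did not overlap. The opioid peptide gene Penk stood at 0.517, 14.1 and 0.548 CPM against 92.6, 182 and 274 CPM, and Pdyn had 0 gated counts. Pdyn was detected in 7.27% of other cells. Grp stood at 4.66, 10.04 and 4.48 CPM against 55.2, 89.7 and 56.4 CPM. Called higher were Adcyap1, which encodes the peptide PACAP, at 108, 59.1 and 101 CPM against 47.2, 36.2 and 34.8 CPM, the corticotropin-releasing hormone receptor Crhr1 at 66.8, 51.5 and 49.2 CPM against 17.7, 20.4 and 21.5 CPM, and the somatostatin receptor Sstr2.

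Of 23 cadherins and protocadherins tested, 2 were called higher and 11 lower, with a list median of -1.43. Cdh9 had 1 gated count against 14.01 ± 2.10 CPM in other cells, and Pcdh8 stood at 6.62 ± 5.72 against 63.3 ± 8.36 CPM. Pcdh7 stood at 18.1, 35.01 and 44.8 CPM against 99.4, 127 and 175 CPM. Cdh8 was called higher, at 126, 222 and 204 CPM against 59.1, 87.8 and 83.2 CPM, as was Cdh2. Of 53 axon guidance genes tested, 5 were called higher and 8 lower. The semaphorin Sema4g stood at 25.4, 21.5 and 19.7 CPM against 3.05, 1.94 and 0.446 CPM, and Plxnd1, a semaphorin receptor, at 51.2, 81.0 and 65.95 CPM against 16.3, 13.6 and 11.3 CPM. Sema3e, a ligand of Plxnd1, had 4 gated counts and stood at 31.4, 18.7 and 15.1 CPM in other cells, and the ephrin Efnb3 had 5 gated counts against 34.2, 37.9 and 14.3 CPM.

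Of 44 cortical transcription factors tested, 4 were called higher and 13 lower. Beside Neurod6, Bcl11b, Tox and Fezf2, the lower group held Id2, an inhibitor of basic helix-loop-helix factors, at 29.5, 77.2 and 27.04 CPM against 561, 704 and 681 CPM. Id2 was nonetheless detected in 50.5% of gated cells, and the highest single gated cell reached 1397 CPM. Lmo3 stood at 0.714 ± 0.464 against 51.6 ± 18.2 CPM, Tbr1, a factor of layer 6 identity, at 2.07, 11.8 and 4.02 CPM against 61.8, 55.1 and 65.2 CPM, and Meis2 at 1.03, 22.3 and 3.65 CPM against 80.7, 102 and 109.7 CPM. Rora, a nuclear receptor related to Rorb, was called higher, at 430.01, 397 and 478 CPM against 174, 155 and 188 CPM. Nr2f1, Tshz1 and Emx1 were also called higher, with log2 fold changes of 1.08 ± 0.14, 1.33 ± 0.33 and 1.11 ± 0.17.

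Of 9 corticosteroid genes tested, Hsd11b1 and Scnn1a were called higher and 0 lower. The glucocorticoid receptor Nr3c1 stood at 101 ± 14.2 against 170.4 ± 26.7 CPM and its target Fkbp5 at 8.94 ± 1.43 against 18.8 ± 5.16 CPM, neither called. Scnn1g, the gamma subunit of the channel to which Scnn1a belongs, stood at 6.44 ± 6.75 against 0.316 ± 0.046 CPM and missed the threshold (log2 fold change 3.92 ± 1.09, edgeR adjusted p = 0.0567). Of 18 muscle contraction and glycogen genes tested beside Tnnc2, Pygm was called higher and Myl4, an atrial myosin light chain, lower (4.93 ± 2.47 against 26.7 ± 5.66 CPM). With 2.8% of all genes tested called higher and 4.38% lower, 1 call each way says little about the list. The brain glycogen phosphorylase Pygb stood at 15.8 ± 3.83 against 16.05 ± 3.12 CPM, and muscle phosphofructokinase Pfkm at 337 ± 23.01 against 288 ± 35.6 CPM.

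Of 11 actin regulators tested beside Eps8l2, Anln was called higher and Baiap2, a binding partner of Eps8, lower (103, 219 and 190 CPM against 447, 575 and 595 CPM). Eps8 itself stood at 4.08 ± 1.90 against 0.158 ± 0.208 CPM and was not called. Of 5 tested EGF family genes, Hbegf was the 1 called. Of 18 immediate early genes tested, Dusp1 was called higher and Fosl2 and Egr2 lower. Over all genes tested, 2.8% were called higher and 4.38% lower. Such small counts say little about the actin, EGF family and immediate early lists. The Dusp1 difference lay near the fold limit (log2 fold change 1.02 ± 0.16) and its call was lost without animal 3 (0.82), after thinning (0.88), without the animal block (0.98) and with the gate at 15 CPM (1.00) or 60 CPM (0.99). The Egr2 call, from 1 gated count, was lost without animal 2. Fos stood at 128 ± 72.7 against 109 ± 48.9 CPM and Arc at 104 ± 52.8 against 124 ± 68.5 CPM.

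Gated cells were then set against 2 other classes of cells. Calb1 cells were the 217 cells with at least 100 CPM of Calb1. Il1rapl2 Deptor cells were 148 cells with at least 30 CPM of Il1rapl2 and Deptor together and outside both other classes. Against Calb1 cells, 875 of 12333 genes (7.09%) were called, 418 (3.39%) higher and 457 (3.71%) lower in gated cells. Against Il1rapl2 Deptor cells, 640 of 12163 genes (5.26%) were called, 280 (2.3%) higher and 360 (2.96%) lower. Il1rapl2 and Deptor, which define that class, are among the 360 and are no finding. The comparisons share the gated sums, so their calls are not independent of each other.

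**Figure D3:**
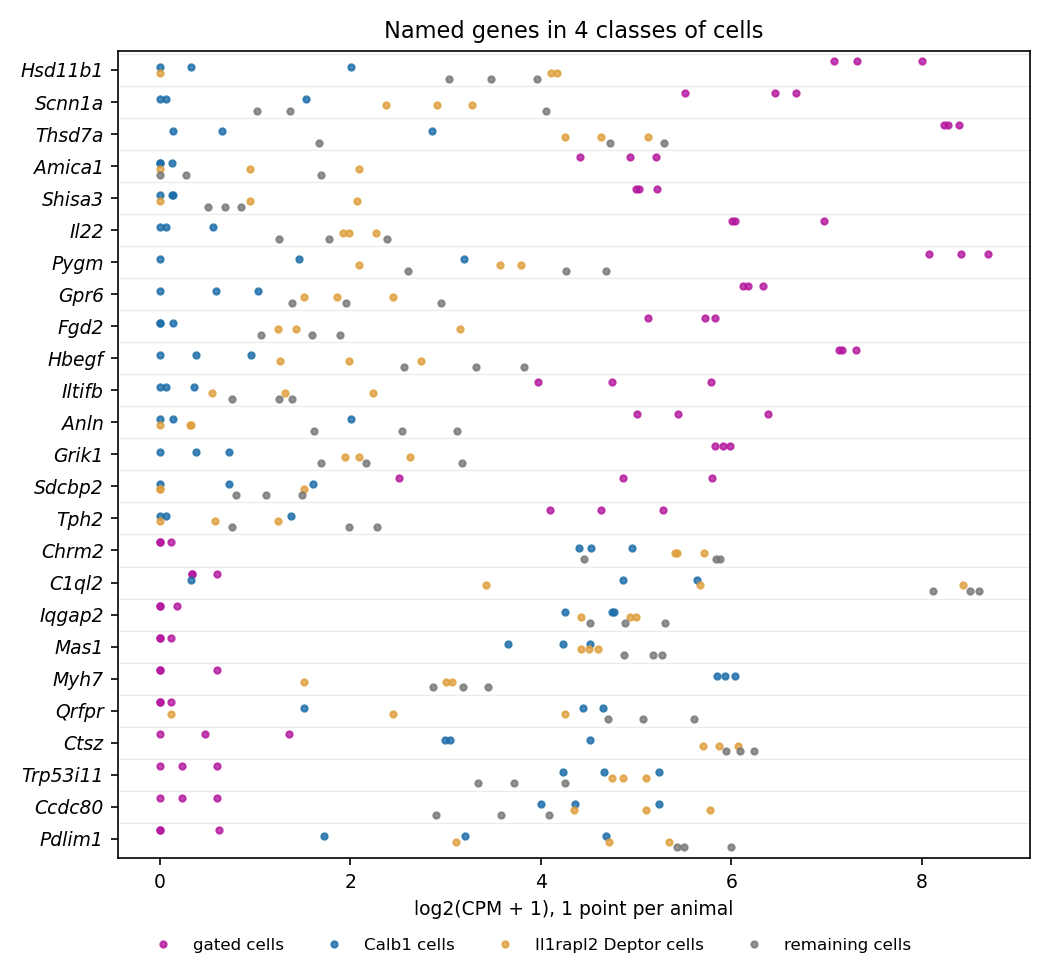
Levels, as log2(CPM + 1) with CPM on the total counts of each class, of the 3 non-gate markers and the other named genes in gated cells (105), Calb1 cells (217), Il1rapl2 Deptor cells (148) and remaining cells (295), with 1 point per animal. Genes from Hsd11b1 to Tph2 have all 3 gated points above every other point; genes from Chrm2 to Pdlim1 have all 3 below, except that C1ql2 and Qrfpr overlap with points of Calb1 or Il1rapl2 Deptor cells.

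Thsd7a stood at 2.28 CPM on average in Calb1 cells and at 25.3 CPM in Il1rapl2 Deptor cells, and Hsd11b1 at 1.08 and 11.1 CPM. Fgd2 had 33.8, 51.9 and 56.5 CPM in gated cells and 0, 0 and 0.102 CPM in Calb1 cells of animals 1, 2 and 3. Hbegf had 142, 159 and 141 CPM against 0, 0.933 and 0.305 CPM. In the other direction, Csgalnact1, which starts chondroitin sulfate chains, and Lpl, lipoprotein lipase, had 0 counts in gated cells. Csgalnact1 was at 28.99, 25.9 and 27.04 CPM in Calb1 cells, so that gated cells were at least 185-fold lower against the floor of 3 counts over the gated sums. Lpl was at 19.9, 22.8 and 20.2 CPM there, so that gated cells were at least 145-fold lower. Myh7 stood at 59.7, 64.1 and 57.4 CPM in Calb1 cells.

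Against Il1rapl2 Deptor cells, Anln stood out, with 31.04, 82.7 and 42.8 CPM in gated cells against 0, 0.246 and 0.255 CPM. Tspan11, a tetraspanin, stood at 45.5, 16.9 and 18.5 CPM against 0, 0 and 0.766 CPM, and Tmem125 at 95.7, 75.4 and 96.9 CPM against 1.40, 3.08 and 2.21 CPM. Arhgap25, which inactivates Rac, had 1 gated count and stood at 22.9, 19.7 and 24.9 CPM in Il1rapl2 Deptor cells. Scnn1a, Rspo1 and Whrn were called higher against both classes. Pvalb, Coch and Parm1 were also called higher against both, and Scn3b, Gria1, Neurod6, Id2, Cck and Penk lower against both. Not every gene named above was called against both classes. Bcl11b, Crym and Slc17a6 were not called against Calb1 cells. Ddit4l and Rasgrf2 were not called against Il1rapl2 Deptor cells. Fezf2 and Cxcl14 were called against neither, and Fezf2 was higher than in Calb1 cells (log2 fold change 2.22 ± 0.71). Ctgf and Kcnip1 had too few counts for a test against either class, as had Oprk1 and Drd1a against Calb1 cells.

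Within the gated class, the spread between cells differed by gene. Thsd7a had quartiles of 140.04, 286 and 453 CPM over the 105 cells, and Pygm had 199.7, 293 and 442 CPM, with detection in 93.3% and 95.2% of cells. Parm1 had quartiles of 486, 622 and 796 CPM and was detected in 104 cells. Pvalb, by contrast, had quartiles of 0, 43.1 and 190.5 CPM and a highest cell of 1361 CPM. Cck had quartiles of 17.1, 231 and 543 CPM with 1 cell at 4547 CPM. Prph, the intermediate filament peripherin, had quartiles of 19.7, 135 and 317 CPM. Amica1 was detected in 34 cells and Tph2 in 32, so their class means come from under 33% of the cells. Single-cell values also carry counting error, which was not separated from variation between cells.

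The 3 dissection levels were independent of the gate and were compared over animals. Gated cells made up 7 of 45, 24 of 106 and 9 of 105 anterior cells in animals 1, 2 and 3. At the medium level they made up 4 of 35, 12 of 89 and 18 of 93 cells, and at the posterior level 14 of 72, 0 of 109 and 17 of 111 cells. The mean shares were 15.6% ± 7.04 (SD, n = 3 animals) anterior, 14.8% ± 4.11 medium and 11.6% ± 10.2 posterior. Over animals taken as separate, the exact permutation p (two-sided) was 0.9 for medium and 0.6 for posterior against anterior, both 0.9 after adjustment over the 2 comparisons, and no p under 0.1 can be reached with 3 against 3. The levels come from the same 3 animals, and the within-animal differences were -4.13, -9.16 and 10.8 points for medium and 3.89, -22.6 and 6.74 points for posterior minus anterior. An exact sign-flip permutation of these differences, chosen after seeing the data, gave p = 1 for both, and the smallest p it can give is 0.25. Designs of this size cannot show a difference at the 0.05 level.

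Animal 2 stood apart at the posterior level. No gated cell was found among its 109 posterior cells, in any of its 4 samples. A count of 0 allows a share of up to 2.75% by the limit of 3 counts, and the exact 95% interval reaches 3.33%. The 0 depends on the 30 CPM limit: a posterior cell of animal 2 with 17.3 CPM lay just outside the gate. That cell fell in the cluster of most gated cells, with 1169 CPM of Thsd7a, 43.3 CPM of Scnn1a and 0 CPM of Hsd11b1 and Pygm. In animals 1 and 3, the posterior shares were 19.4% (95% interval 11.1 to 30.5) and 15.3% (9.18 to 23.4). The anterior share of animal 2, 22.6% (15.1 to 31.8), was the highest of the 9 shares. These intervals cover counting error within 1 animal. Without animal 2, the posterior share was 5.32 percentage points above the anterior share, whereas with all 3 animals the posterior minus anterior difference was -4.003 points. The ungated posterior cells had median totals of 72725, 99282 and 163163 counts in animals 1, 2 and 3. The part of depth in these shares was not tested.

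**Figure D4:**
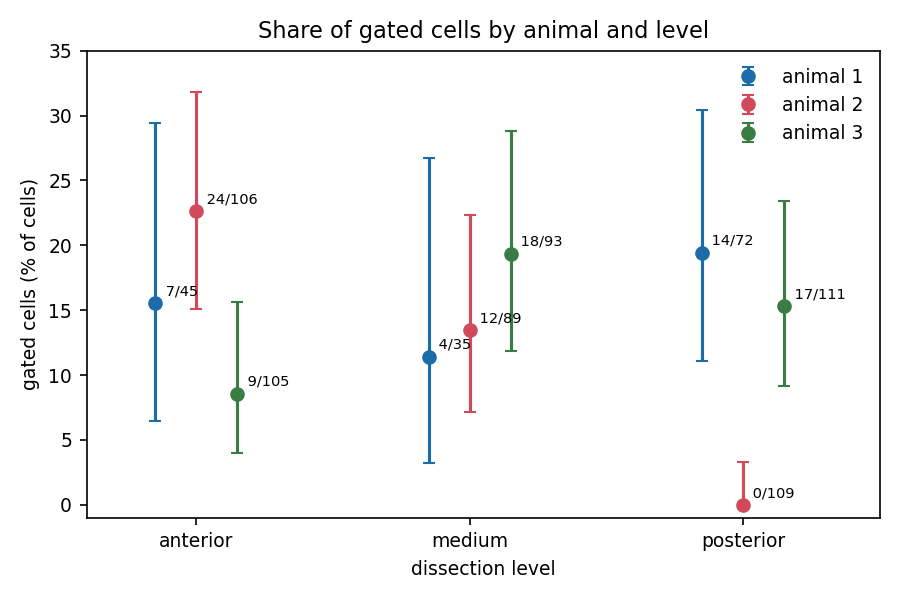
Share of gated cells among all cells (%) at the anterior, medium and posterior dissection levels, with 1 point per animal, exact binomial 95% intervals as bars and the number of gated and of all cells beside each point. Animal 2 falls from 24 of 106 anterior cells to 0 of 109 posterior cells, while animals 1 and 3 stay above 15% at the posterior level.

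Expression within gated cells was compared between levels over sums of at least 3 cells. For medium against anterior, 3 animals had both sums, and 0 of 10053 genes (0%) were called by edgeR, with 244 genes (2.43%) under an unadjusted p of 0.05 and 0 genes called by DESeq2. For posterior against anterior, 2 animals had both sums, and 0 of 9896 genes (0%) were called by edgeR, with 343 (3.47%) under an unadjusted p of 0.05, while DESeq2 called 12. Thsd7a averaged 295 CPM in anterior and 362 CPM in medium sums (log2 fold change 0.27 ± 0.26), and Pygm averaged 427 CPM in anterior and 349 CPM in posterior sums (-0.30 ± 0.18). Grik1 averaged 25.9 CPM in medium against 73.7 CPM in anterior sums (-1.56 ± 0.55), which was not called (edgeR adjusted p = 0.999).

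The sections gave a readout that the gate had not used. Tnnc2 or Eps8l2 had a count in 27 spots of S4, against 995 without, and in 28 spots of S8, against 923 without; 1 spot in each section held both genes. Eps8l2 was the more frequent, in 21 and 22 spots, against 7 and 7 for Tnnc2. A count in a spot can come from any cell under it, and more such cells or more RNA per cell cannot be told apart in spots. Spots with a count had median totals of 8734 and 6864 counts against 8234 and 6700 for other spots. Tshz2 had a count in 59.3% and 39.3% of spots with a count of the gate genes, against 20.1% and 20.7% of other spots.

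Of 12254 genes tested between summed spots with the section as a block, edgeR called 6 (0.049%), 5 higher (0.0408%) and 1 lower (0.00816%) in spots with a count. Tshz2 stood at 149 and 131 CPM in spots with a count in S4 and S8 against 46.3 and 53.6 CPM in other spots (log2 fold change 1.51 ± 0.24, edgeR adjusted p = 9.8e-07). Cbln1, a secreted synaptic organizer, stood at 56.5 and 47.1 CPM against 8.74 and 13.8 CPM (2.26 ± 0.45, edgeR adjusted p = 0.000493). Nrep stood at 323 and 194 CPM against 88.6 and 93.5 CPM (1.54 ± 0.17). Nnat, an imprinted gene of developing and adult neurons, was lower, at 72.6 and 162 CPM against 236 and 248 CPM (-1.11 ± 0.20). The count of calls rests on 55 spots in 2 sections, and 2 genes were called without the section block. The small p-values in spots rest mostly on counting error and a spread pooled over genes, not on the spread between sections. DESeq2 did not call Tshz2, Cbln1, Nnat and Hbb-bt, and the fit without the section block did not call Cbln1, Nnat, Hba-a2 and Hbb-bt. Within the spots that held Tshz2, Hba-a2, Hbb-bt and Nnat were not called. Tshz2 itself was not called there either, but choosing spots by Tshz2 shrinks its own difference by design.

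Hemoglobin genes were higher in the same spots. Hba-a2 stood at 387 and 828 CPM against 224 and 296 CPM (log2 fold change 1.17 ± 0.12) and Hbb-bt at 190 and 288 CPM against 111 and 108 CPM (1.09 ± 0.18), both called. Hba-a1 and Hbb-bs, higher in both sections with log2 fold changes of 0.94 ± 0.12 and 1.00 ± 0.10, had adjusted p-values of 2.6e-11 and 9.8e-21 by edgeR and stayed under the fold limit. Within the spots that also held Tshz2, the Hba-a2 and Hbb-bt differences shrank to 0.21 and 0.32. Hba-a1 and Hba-a2 are near-identical copies whose counts can be shared. The part of blood in the spot classes was not tested.

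The genes that set gated cells apart were followed into the spots. Of 357 genes called higher in gated cells, 307 were tested in spots, and 117 (38.1%) were higher in both sections, against 21.6% of all genes tested. Their median log2 fold change was 0.12 against -0.05 over all genes. Of 559 genes called lower, 500 were tested, and 228 (45.6%) were lower in both sections, against 30.5% of all genes, with a median of -0.26. Single genes carried few counts. Pygm stood at 36.3 and 36.7 CPM against 15.01 and 20.1 CPM (log2 fold change 1.08 ± 0.46, edgeR adjusted p = 0.803), and Hsd11b1 at 64.5 and 47.1 CPM against 31.9 and 27.6 CPM (0.92 ± 0.36, edgeR adjusted p = 0.679). Parm1 stood at 117 and 115 CPM against 64.6 and 67.4 CPM (0.82 ± 0.25, edgeR adjusted p = 0.281).

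Cxcl14 passed the adjusted threshold but not the fold limit in spots, at 185 and 225 CPM against 106 and 134 CPM (log2 fold change 0.77 ± 0.18, edgeR adjusted p = 0.0163). Scnn1a had 1 and 3 counts in spots with a count of the gate genes, 4.03 and 15.7 CPM against 2.83 and 3.98 CPM in other spots, and was not called (log2 fold change 1.44 ± 0.97, edgeR adjusted p = 0.933). Thsd7a went the other way, at 20.2 and 20.95 CPM against 25.5 and 33.9 CPM, and was not called. C1ql2, with 6 counts in all gated cells, stood at 12.1 and 36.7 CPM in these spots against 7.63 and 9.63 CPM in other spots and was not called (edgeR adjusted p = 0.803). Mas1 had 1 count per section in these spots, 4.03 and 5.24 CPM against 22.3 and 17.1 CPM in other spots, and was not called (edgeR adjusted p = 0.753). Gad1 had 51 and 45 counts in these spots and a log2 fold change of 0.16 ± 0.17, and Gad2 had 23 and 12 counts (-0.37 ± 0.25).

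**Figure D5:**
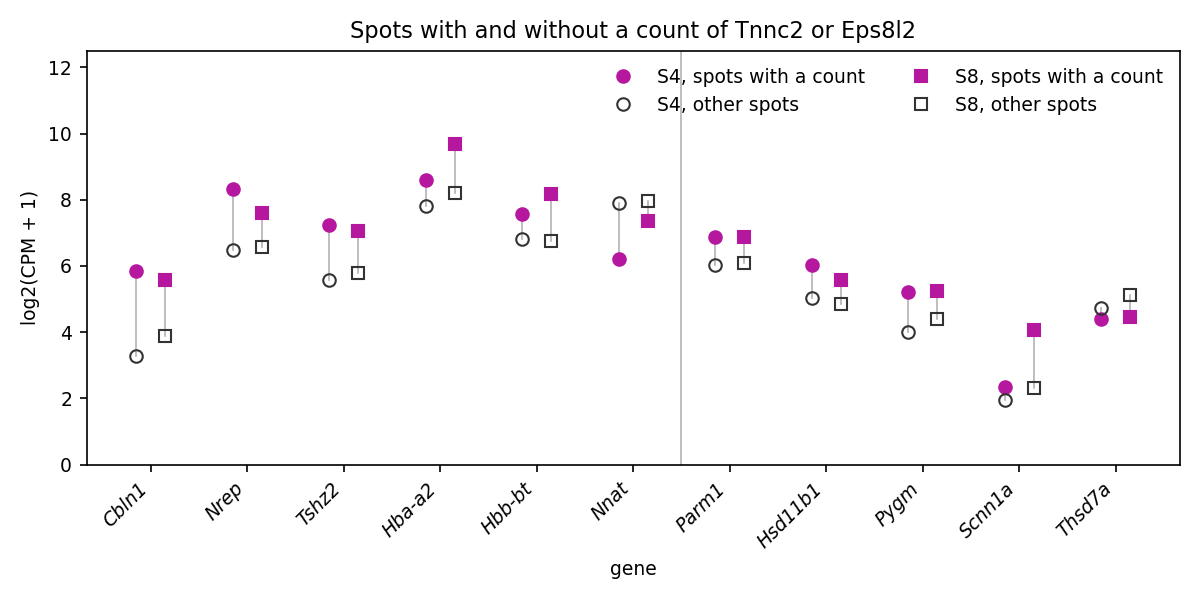
Levels, as log2(CPM + 1), in spots with a count of Tnnc2 or Eps8l2 (filled) and in other spots (open) for sections S4 (circles) and S8 (squares). The 6 called genes are at the left and 5 genes higher in gated cells are at the right. Cbln1, Nrep, Tshz2, Hba-a2 and Hbb-bt are higher and Nnat lower in both sections, and Thsd7a is lower in both.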

How the data were processed

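The deposited values were raw counts per gene and cell, and raw counts per gene and spot; the authors' processing notes name Seurat and build NCBIM37 for the cells, and Seurat, Space Ranger, NCBIM37 and mm10 for the sections, per the submitters' processing notes. The aligner, the counting, the cell filters and whether counts are reads or molecules are not given in the sources used here. Sample and level were read from the column names and the animal from the deposited cell table; S4 and S8 could not be matched to the 2 labelled sections. Per animal, 152, 304 and 309 cells entered, with 15114 genes in the table and no further cell filter.

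The gate genes, the gene lists and the rules were chosen with earlier results of these data known. Counts were summed per animal and class (or per section and spot class) and fitted with edgeR 4.0.16 in R 4.3.3, with filterByExpr, TMM factors, a quasi-likelihood test and the animal or section as a block, adjusted by Benjamini-Hochberg over all genes tested. Both classes of a sum come from the same animal, which is where the pairing comes from. Standard errors are the log2 fold change divided by the square root of F. Levels in CPM are sums on TMM-scaled totals; values over samples, cells and the 4 classes are on raw totals. The labels name no litter or culture. P-values of the cell comparisons rest on the spread between these 3 animals, moderated by a spread pooled over genes. In spots, 2 sections give little information on the spread between sections. The p-values there rest mostly on counting error and the pooled spread. DESeq2 1.42.0 was an alternative. Shares were compared by exact permutation over animals with scipy 1.17.1, and intervals are exact Clopper-Pearson at 95%. Clusters came from scanpy 1.11.5 (2000 variable genes, 30 components, 15 neighbours, Leiden resolution 1). The fits were also run on simulated counts with known changes, whose outcome is not given here.

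Genes named against all other cells were those called, changed the same way in 3 of 3 animals and at 20 CPM or more in the higher class: the 15 largest increases and the 10 largest decreases. For the Calb1 and Il1rapl2 Deptor comparisons the 5 largest each way were taken, and lists gave up to 4 genes. Further members of lists are named for their role and were chosen after their values were seen.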

Additional observations from a re-analysis of the deposited data

How the results depend on the processing

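The 916 genes called between gated and all other cells ranged from 746 to 883 when 1 animal was left out, and from 621 (without posterior cells) to 1270 (DESeq2) over the other settings. DESeq2 called 1380 genes against Calb1 cells, 1033 against Il1rapl2 Deptor cells, 12 between posterior and anterior levels and 3 in spots; the cause was not tested. Leaving out 1 animal, which leaves fewer samples, gave 556 (without animal 1) to 742 genes against Calb1 cells and 368 (without animal 3) to 534 against Il1rapl2 Deptor cells, with 415 without animal 2. For medium against anterior it gave 0 to 1, and no filter on low counts also gave 1. For posterior against anterior, a fit was possible without animal 2 and gave 0; without animal 1 or 3 no residual degrees of freedom were left. Sums of at least 10 cells per level could not be fitted, since 1 animal or fewer had both. Without the animal block, 960, 975 and 695 genes were called against all other, Calb1 and Il1rapl2 Deptor cells, and 0 between levels; without the section block, 2 were called in spots.

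The medium minus anterior share of gated cells was 3.77 points without cells under 50000 counts, 0.813 without animal 1 and 3.33 without animal 2, and ran from -6.64 to 3.33 over the animals left out; the posterior difference ran from -9.38 to 5.32, the latter without animal 2. With at least 2 counts of the gate genes required, which left 2 spots in S4 and 1 in S8, Hba-a2 and Hbb-bt reversed to -0.28 and -0.21, and the other 4 spot calls were lost. Over all named genes and settings, 1489 values kept direction and call, 77 lost the call and 2 reversed. Grik4, Kcna5, Rgs5, Sema5b and Syt6 lost their calls without any 1 of the 3 animals. Cldn11 and Slc17a6 did so without animal 1 or 2, Nxph1 and Pcdh20 without animal 2 or 3, Fezf2 without animal 1, Cdh4 and Egr2 without animal 2, and Dusp1 without animal 3. Within animals (the replicate block for the shares), the mean differences were -0.834 and -4.003 points with an exact permutation p of 1 for both. The within-animal test, thinned cells, cells without the posterior level and cells without the ungated members of the main cluster were settings chosen after seeing the data. In spots, depth limits the comparison to genes with many counts.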

Other observations

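Hemoglobin RNA was also measured in the dissociated cells, where its genes were chosen after their values were seen. Hba-a2 had a count in 5 of 25, 11 of 36 and 18 of 44 gated cells of animals 1, 2 and 3, and in 4.72%, 3.36% and 3.02% of other cells. Its level was 3.12, 4.71 and 4.84 CPM in gated cells and 0.793, 0.559 and 0.346 CPM in other cells, without overlap between animals. Over the 11 samples the ranges overlapped, from 1.26 to 8.31 CPM in gated and from 0 to 1.47 CPM in other cells. After thinning to 50000 counts, Hba-a2 had a count in 12.9% of gated and 2.16% of other cells. Hba-a1, a near-identical copy, had a count in 10.5% of gated and 9.55% of other cells. How reads were shared between the copies is not given in the sources used here.

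Prph, which encodes the intermediate filament peripherin, ran from 96.6 to 439.97 CPM over the 11 samples of gated cells and from 0.567 to 29.1 CPM in other cells, without overlap. It was chosen after its values were seen.

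In spots, Sst was lower where Tnnc2 or Eps8l2 had a count (log2 fold change -0.80 ± 0.15, edgeR adjusted p = 0.00025) and stayed under the fold limit. Rorb had 6 and 4 counts in those spots and was not called (-1.03 ± 0.44).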
